A study of Rattus norvegicus with 12 samples.

Results

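The 38 genes described here code for glucose transporters, the enzymes of glycolysis, proteins that handle lactate and pyruvate, and parts and targets of the hypoxia-inducible factor (HIF) pathway. The rule lists them by name and uses no measured value, although they were picked with earlier results of these data known. They were matched by symbol to the deposited table of 21071 genes. A row was found for 37 of the 38, each with 1 row, and all 37 were among the 15650 genes that passed the filter on low counts and were tested. Gapdh was not analysed here. The annotation deposited with the table gives all 37 as protein coding. It gives the KEGG glycolysis term for 16 of them, the HIF-1 signalling term for 18, both terms for 12 and neither for 15.

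The RNA came from cultured rat nucleus pulposus cells, which form the soft centre of the intervertebral disc, and was sequenced in 12 libraries, 3 in each of 4 groups. The first group received erastin and exosomes from nucleus pulposus progenitor cells that overexpress the microRNA miR-221-3p (erastin + miR-Exo), and the next received erastin and exosomes of unmodified progenitors (erastin + NPPC-Exo). The other 2 groups received the same kinds of exosome without erastin (miR-Exo and NPPC-Exo). Erastin blocks the import of cystine into cells and is used to set off ferroptosis, a form of cell death by iron-driven lipid peroxidation. Exosomes were given at 50 µg/mL and erastin at 0.1 to 5 µM for 48 h, with no erastin dose given for any single library. Every group received exosomes, so each comparison is either between cells with and without erastin or between the kinds of exosome. The oxygen level of the cultures is not given in the labels. The labels leave unsaid if replicates are independent cultures or different animals, and each p-value therefore reflects only library-to-library spread, which may be technical. The titles name the treated libraries by erastin, and the deposited columns name them Model.

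Glycolysis splits glucose into pyruvate and yields ATP without oxygen, and lactate dehydrogenase then turns pyruvate into lactate, which leaves the cell through monocarboxylate transporters. When oxygen is low, the HIF alpha subunits escape hydroxylation by the prolyl hydroxylases of the Egln family, pair with Arnt, bind DNA and raise the transcription of many glycolytic genes and of their own regulators. The nucleus pulposus has almost no blood vessels, and its cells are known for a glycolytic metabolism and for HIF-1 alpha that persists even in the presence of oxygen.

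The 2 kinds of exosome came from progenitors with or without overexpressed miR-221-3p, and the level of this microRNA in the exosomes was not examined here. The mature sequence of the microRNA is shown (RefSeq, build GRCr8, X chromosome, plus strand), 23 bases long and with the seed, bases 2 to 8, in capitals.
rno-miR-221-3p: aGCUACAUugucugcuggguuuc

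HIF binds the core ACGTG or GCGTG, and the windows around the RefSeq transcription start (250 bases before to 50 after, build GRCr8) were searched for these letters on both strands, so that CACGT and CACGC also count and overlapping matches count separately. The windows of a pair of genes that rose in both erastin comparisons (Egln3 and Slc16a1) and of a pair that fell in both (Ca9, listed by RefSeq as Car9, and Pfkfb3) are shown 5′ to 3′ on the gene's strand, with matches in capitals.
Egln3, chr6:77410966-77411265, minus strand: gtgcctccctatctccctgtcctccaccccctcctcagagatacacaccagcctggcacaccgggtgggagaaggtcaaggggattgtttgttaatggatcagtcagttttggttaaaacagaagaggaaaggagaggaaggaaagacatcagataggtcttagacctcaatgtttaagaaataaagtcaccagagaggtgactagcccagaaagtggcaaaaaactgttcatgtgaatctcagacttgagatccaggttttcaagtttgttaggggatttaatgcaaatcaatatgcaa
Slc16a1, chr2:194812410-194812709, plus strand: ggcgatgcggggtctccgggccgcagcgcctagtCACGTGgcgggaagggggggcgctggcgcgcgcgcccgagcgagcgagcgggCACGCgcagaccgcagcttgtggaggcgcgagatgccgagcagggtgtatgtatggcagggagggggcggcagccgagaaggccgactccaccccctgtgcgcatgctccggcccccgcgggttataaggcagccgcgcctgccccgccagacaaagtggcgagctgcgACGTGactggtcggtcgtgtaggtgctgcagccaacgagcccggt
Ca9, chr5:62558774-62559073, plus strand: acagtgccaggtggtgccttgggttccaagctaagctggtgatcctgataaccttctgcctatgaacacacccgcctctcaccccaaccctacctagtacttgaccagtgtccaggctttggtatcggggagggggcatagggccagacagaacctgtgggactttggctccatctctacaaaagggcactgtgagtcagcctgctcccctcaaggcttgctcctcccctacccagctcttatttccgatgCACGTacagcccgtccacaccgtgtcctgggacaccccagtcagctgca
Pfkfb3, chr17:71944683-71944982, plus strand: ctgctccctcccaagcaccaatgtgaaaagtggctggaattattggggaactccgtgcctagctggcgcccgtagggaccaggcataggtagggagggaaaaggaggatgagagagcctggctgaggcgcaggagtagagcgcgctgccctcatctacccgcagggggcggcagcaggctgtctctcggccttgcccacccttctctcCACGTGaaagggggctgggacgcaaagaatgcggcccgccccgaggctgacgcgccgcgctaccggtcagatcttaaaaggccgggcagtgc
The Slc16a1 window holds 4 matches, that of Pfkfb3 holds 2, that of Ca9 holds 1 and that of Egln3 holds 0. Windows were found for 33 of the 37 genes, 38 windows in all because some genes have several starts, and 26 of the 38 (68.4%) hold a match. Among all 33469 windows of the RefSeq table, 41.6% hold one. The share was 8 of 14 windows for genes higher in both erastin comparisons and 4 of 4 for genes lower in both. A match describes the letters of the window and is not evidence of binding.

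Total counts ran from 54616827 to 68865720 per library. Of the defining nucleus pulposus markers, Acan, Col2a1, Pax1 and Cd24 were above 3 FPKM (fragments counted per transcript length and library size) in all 12 libraries. Krt8 lay between 1.1 and 2.74 FPKM and Krt18 under 1 FPKM in each, and Sox9 averaged 1.81 FPKM in erastin + miR-Exo, 3.82 in erastin + NPPC-Exo, 8.32 in miR-Exo and 8.2 in NPPC-Exo libraries. The 10 nucleus pulposus markers with a row summed to 158 to 173 FPKM in erastin + miR-Exo and 203 to 221 FPKM in erastin + NPPC-Exo. They summed to 1026 to 1200 FPKM in miR-Exo and 947 to 1105 FPKM in NPPC-Exo libraries, sums made up mostly of the matrix genes Acan and Col2a1. With erastin Acan, Col2a1, Sox9 and Pax1 fell under both kinds of exosome, by 3.09, 3.92, 2.50 and 2.56 with miR-Exo and by 2.81, 2.18, 1.38 and 2.05 with NPPC-Exo on the log2 scale. Krt8 and Sox6 fell with miR-Exo, by 0.68 and 0.57, and were not called with NPPC-Exo. Other markers of the list went the other way: Cd24 rose by 0.74 with miR-Exo and 0.85 with NPPC-Exo, Sox5 rose by 0.71 with miR-Exo and Foxf1 by 1.19 with NPPC-Exo. In bulk RNA, fewer cells of a type and less RNA per cell cannot be told apart. Of 8 macrophage and leukocyte markers with a row, 6 (Csf1r, Itgam, Adgre1, Lyz2, Aif1 and Fcer1g) stayed under 1 FPKM in all 12 libraries, and the sum of the 8 was mostly Cd14. That sum was 15.3 to 19.4 FPKM in erastin + miR-Exo, 8.05 to 11 in erastin + NPPC-Exo, 5.01 to 5.79 in miR-Exo and 4.06 to 4.83 in NPPC-Exo libraries. With erastin Cd14 rose by 1.49 with miR-Exo and 0.86 with NPPC-Exo on the log2 scale, and the scarcer Cd68 by 1.12 and 1.09. Among cells with erastin both were higher with miR-Exo than with NPPC-Exo (0.81 for Cd14 and 1.22 for Cd68). The 5 endothelial markers with a row summed to 1.56 to 2 FPKM in erastin + miR-Exo and 1.83 to 2.2 in erastin + NPPC-Exo, against 53.2 to 56.7 in miR-Exo and 45.4 to 53.7 in NPPC-Exo libraries. In the groups without erastin nearly all of that was Esam, while Kdr, Tek, Tie1 and Vwf were under 1 FPKM throughout. The 6 skeletal muscle markers with a row summed to 4.12 to 5.07 FPKM in erastin + miR-Exo, 6.55 to 11 in erastin + NPPC-Exo, 35.6 to 38.4 in miR-Exo and 54.3 to 55.2 in NPPC-Exo libraries. The actin Acta1 made up most of the sum except in erastin + miR-Exo libraries. There it averaged 1.51 FPKM beside 1.53 for Tnnt3 and 1.32 for Des. Of the 5 neuron and glia markers with a row, Snap25 and Mbp were under 1 FPKM throughout, and the 5 summed to 10.9 to 11.7 FPKM in erastin + miR-Exo, 7.83 to 8.87 in erastin + NPPC-Exo, 9.55 to 10.4 in miR-Exo and 7.69 to 8.88 in NPPC-Exo libraries. Behind these sums Tubb3 rose with erastin (log2 fold change 0.84 with miR-Exo and 1.13 with NPPC-Exo) and was higher with miR-Exo (0.66 with erastin and 0.95 without it), while Gfap fell with erastin (-2.70 and -1.94). The part of these changes in the results below was not tested. Library 1 of miR-Exo and library 1 of NPPC-Exo lay farthest from their groups on the leading component of the spread within groups, with scores of -0.408 and -0.608, and counts are also given without this pair.

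Of the 23 genes for glucose transport, glycolysis and the fate of lactate and pyruvate, 15 rose and 3 fell with erastin and miR-Exo, and 10 rose and 4 fell with erastin and NPPC-Exo. The remaining genes, of the HIF pathway and its targets, went both ways. With miR-Exo, 20 of the 37 genes rose and 8 fell with erastin, and with NPPC-Exo 14 rose and 10 fell. A gene is said to rise or fall where its adjusted p was under 0.05 (edgeR quasi-likelihood test, Benjamini-Hochberg over all 15650 genes). Among all genes tested, 49.1% were called with miR-Exo (24.7% higher and 24.4% lower) and 43.6% with NPPC-Exo (21.5% higher and 22.1% lower), so calls of any single gene were common. The median log2 fold change of the 37 was 0.273 with miR-Exo and 0.0709 with NPPC-Exo, against 0.0287 and 0.0175 for all genes tested. The 2 erastin comparisons share no library, and 13 of the 37 genes rose in both (16.1% of all genes did) and 6 fell in both (15.5% of all genes did). Pfkp rose in one and fell in the other. The counts depend on the scaling of the libraries: libraries were scaled by the trimmed mean of M values (TMM), and when total counts alone were used (library size alone), 27 rose and 4 fell with miR-Exo, and 22 rose and 4 fell with NPPC-Exo. With that scaling the median log2 fold change of all genes was 0.334 and 0.3, a shift of 0.305 and 0.282 that applies to each erastin value below. Without library 1 of both groups lacking erastin, 21 rose and 6 fell with miR-Exo, and 14 rose and 10 fell with NPPC-Exo. The genes called changed. With miR-Exo, Slc16a3 and Egln1 were lost (adjusted p = 0.0621 and 0.105) and Epas1 was gained (adjusted p = 0.0499). With NPPC-Exo, Ldhb and Epas1 were lost (adjusted p = 0.0554 and 0.0738), and Hk1 and Pfkm were gained (adjusted p = 0.0173 and 0.0041).

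**Figure D1:**
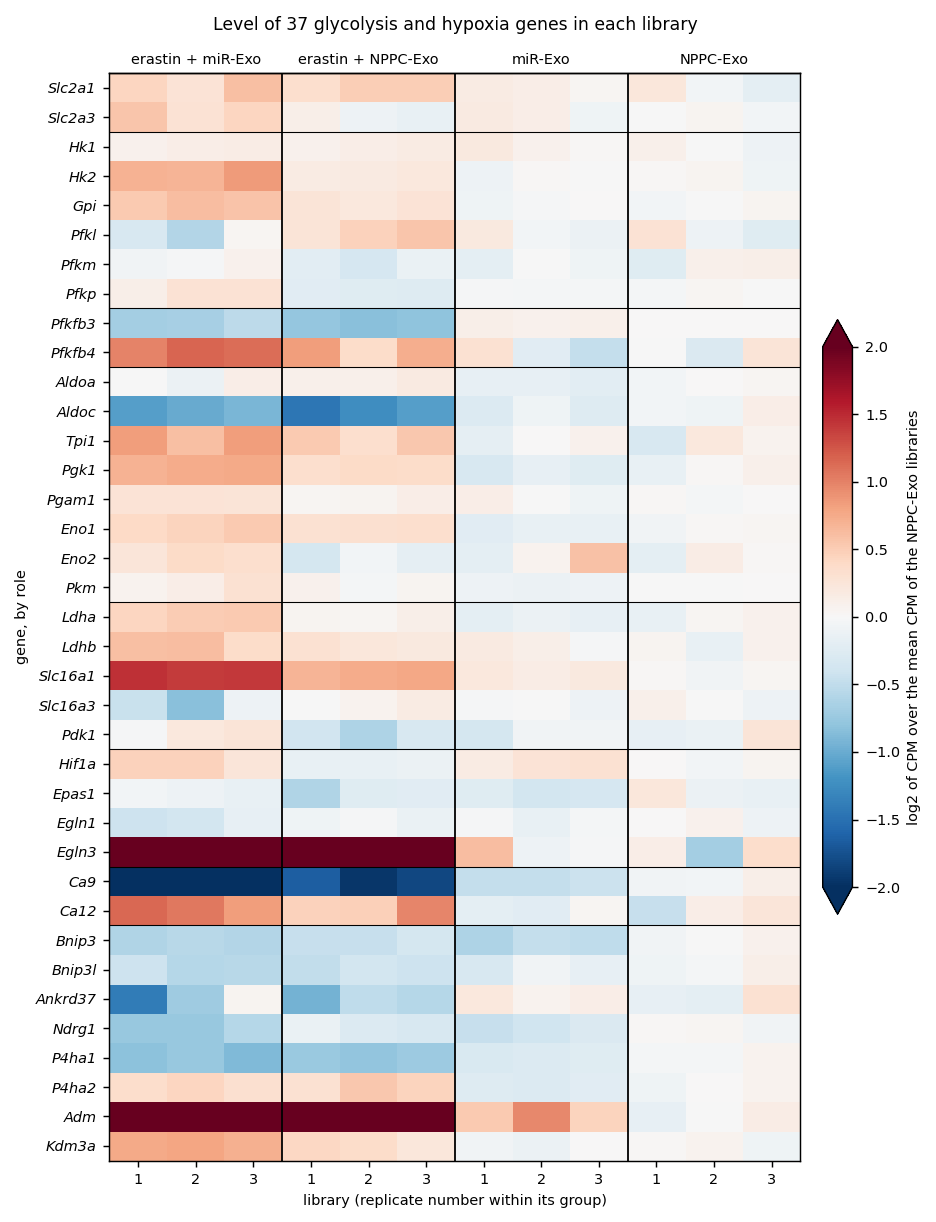
Level of each of the 37 genes (rows, by role) in each of the 12 libraries (columns, by group), as log2 of its CPM (count as a share of the TMM-scaled library total) over the mean CPM of the 3 NPPC-Exo libraries, with the colour scale ending at -2 and 2. The rows of Egln3 and Adm are beyond 2 in all 6 libraries with erastin, that of Ca9 is low in the same 6, and many glycolytic rows are darkest in the 3 erastin + miR-Exo libraries.

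Both glucose transporters of the set were higher with erastin and miR-Exo. Slc2a1 (GLUT1), the basal glucose carrier of most cells, had 113, 102 and 128 CPM (on TMM-scaled library totals, as are all CPM here) in erastin + miR-Exo and 106, 118 and 119 in erastin + NPPC-Exo libraries. It had 94.5, 92.6 and 86.2 CPM in miR-Exo and 98.1, 81 and 73.5 in NPPC-Exo libraries. All libraries with erastin exceeded all libraries without it, and the log2 fold change with erastin was 0.33 ± 0.10 (SE) with miR-Exo and 0.44 ± 0.10 with NPPC-Exo (adjusted p = 0.0174 and 0.00324). Slc2a3 (GLUT3), a carrier of high glucose affinity, rose by 0.34 ± 0.09 with miR-Exo and had a log2 fold change of -0.04 ± 0.09 with NPPC-Exo, which library size alone turned to 0.24 (adjusted p = 0.0439). In length-scaled units the pair stood level with each other in miR-Exo libraries, with a Slc2a1 to Slc2a3 FPKM ratio of 0.969, 0.978 and 1.06. The ratio was 1.14, 1.48 and 1.53 in erastin + NPPC-Exo, 0.897, 0.969 and 1.1 in erastin + miR-Exo and 1.14, 0.903 and 0.883 in NPPC-Exo libraries.

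The upper enzymes of glycolysis moved gene by gene. Hk2, the inducible hexokinase that traps glucose in the cell, had 81.2, 80.3 and 90.6 CPM in erastin + miR-Exo, 56.3, 57.2 and 58.6 in erastin + NPPC-Exo, 47, 51 and 50.2 in miR-Exo and 51.4, 52.3 and 47.4 in NPPC-Exo libraries. The erastin + miR-Exo libraries stood far above the rest and the erastin + NPPC-Exo libraries slightly above both groups without erastin, giving log2 fold changes of 0.77 ± 0.06 (adjusted p = 3.71e-07) and 0.19 ± 0.06 (adjusted p = 0.0283). The erastin effect on Hk2 was larger with miR-Exo than with NPPC-Exo by 0.58 ± 0.09 on the log2 scale (adjusted p = 0.00185, interaction). Hk1, the constitutive hexokinase, was not called in either comparison (0.01 ± 0.06 and 0.13 ± 0.06). With library size alone it was called higher in both (0.32 and 0.41, adjusted p = 0.000417 and 5.42e-05), where the median of all genes was 0.334 and 0.3. Hk1 nevertheless remained the more abundant isoform, since the Hk2 to Hk1 ratio of FPKM was 0.284, 0.274 and 0.307 in erastin + miR-Exo against 0.153, 0.179 and 0.183 in miR-Exo libraries.

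Gpi, which converts glucose 6-phosphate to fructose 6-phosphate, had 501, 534 and 515 CPM in erastin + miR-Exo and 414, 403 and 422 in erastin + NPPC-Exo libraries, against 329, 341 and 348 in miR-Exo and 336, 345 and 362 in NPPC-Exo libraries. No group with erastin overlapped a group without it, and the log2 fold changes were 0.61 ± 0.04 and 0.25 ± 0.04. The difference between these effects was 0.36 ± 0.06 (adjusted p = 0.00344).

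The 3 phosphofructokinase genes, whose enzyme commits sugar to glycolysis, did not move together. Pfkp, the platelet isoform, had 60.6, 68.4 and 68.5 CPM in erastin + miR-Exo and 48.1, 47.6 and 46.8 in erastin + NPPC-Exo libraries, with 54.9, 54.3 and 54.4 in miR-Exo and 54.6, 57.9 and 55.7 in NPPC-Exo libraries. It was thus above its level without erastin in one arm and below it in the other (0.27 ± 0.06, adjusted p = 0.00145, and -0.24 ± 0.06, adjusted p = 0.00425), although with library size alone the NPPC-Exo value became 0.04. The difference between the arms was 0.51 ± 0.08 (adjusted p = 0.0021) and was called under every alternative run. Pfkl, the liver isoform, had 131, 109 and 167 CPM in erastin + miR-Exo, 196, 226 and 241 in erastin + NPPC-Exo, 187, 158 and 151 in miR-Exo and 200, 152 and 138 in NPPC-Exo libraries. Its libraries spread widely within groups, and those with and without erastin overlapped in both arms. It rose with NPPC-Exo (0.44 ± 0.16, adjusted p = 0.0385), had a value of -0.29 ± 0.16 with miR-Exo, and the difference of -0.72 ± 0.22 missed the threshold (adjusted p = 0.0501). Pfkm, the muscle isoform, was not called in any comparison of the main fit. With library size alone it was called higher with erastin and miR-Exo (0.39, adjusted p = 0.00368). Without NPPC-Exo library 1 it was called lower with erastin and NPPC-Exo (-0.33, adjusted p = 0.00532), and the difference between the arms was called (0.42, adjusted p = 0.0224).

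**Figure D2:**
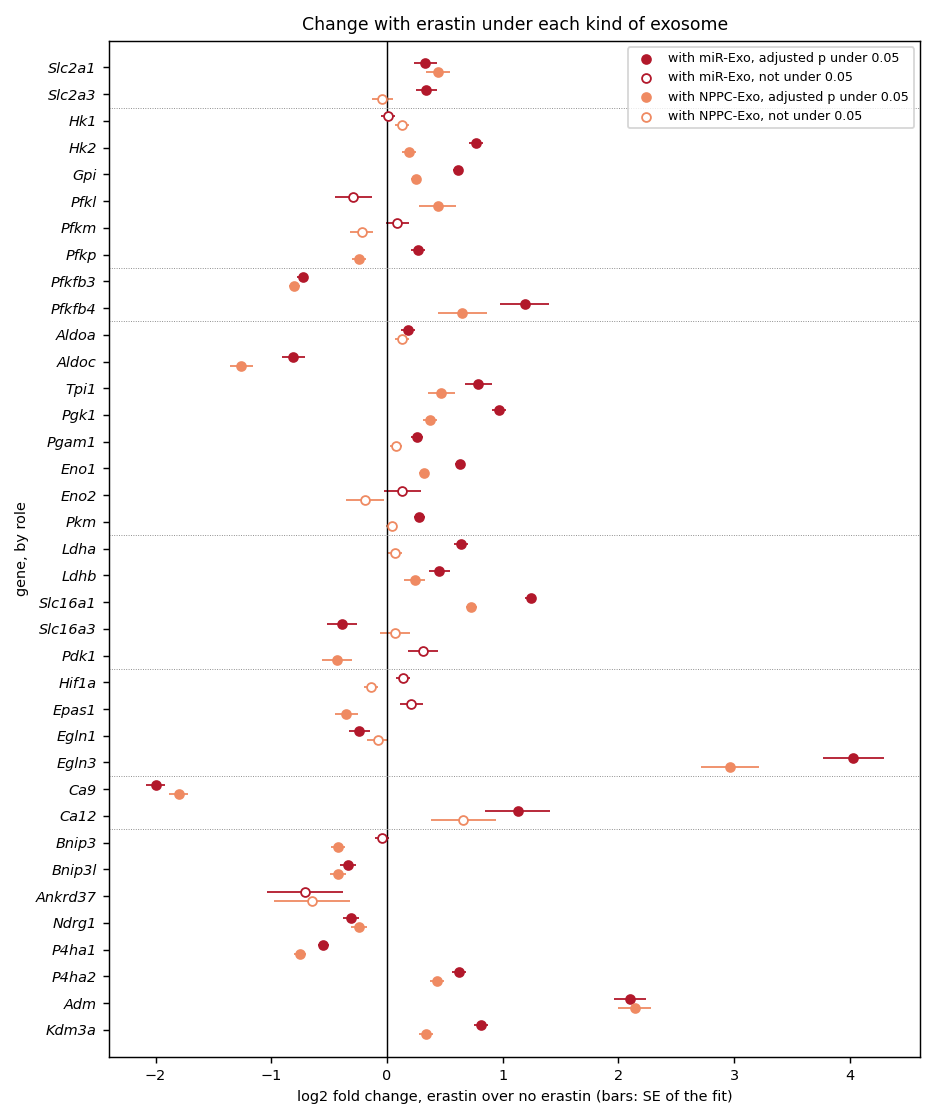
Log2 fold change with erastin (x axis, bars are the SE of the fit, n = 3 libraries in each group) for each of the 37 genes (y axis, by role), with miR-Exo in dark red and with NPPC-Exo in orange, filled where the adjusted p was under 0.05. Egln3 and Adm lie farthest to the right and Ca9 farthest to the left with either kind of exosome, and Hk2, Pgk1, Ldha and Slc16a1 lie farther right with miR-Exo than with NPPC-Exo.

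The bifunctional PFKFB enzymes, which set the level of fructose 2,6-bisphosphate and so the speed of phosphofructokinase, moved in opposite directions. Pfkfb3, the form with the strongest kinase activity, had 97.1, 98.5 and 108 CPM in erastin + miR-Exo and 91.6, 87.4 and 89.5 in erastin + NPPC-Exo libraries, against 170, 166 and 167 in miR-Exo and 156, 156 and 156 in NPPC-Exo libraries. It fell by 0.73 ± 0.05 with miR-Exo and by 0.80 ± 0.05 with NPPC-Exo on the log2 scale (adjusted p = 4.65e-08 and 2.13e-08), with no overlap. Pfkfb4, the lower-abundance relative, rose by 1.19 ± 0.21 and 0.65 ± 0.21. It was at 4.65, 3.19, 1.65 and 1.67 mean FPKM in erastin + miR-Exo, erastin + NPPC-Exo, miR-Exo and NPPC-Exo libraries. The Pfkfb3 to Pfkfb4 FPKM ratio was 5.06 ± 0.325 in erastin + miR-Exo and 6.16 ± 0.952 in erastin + NPPC-Exo, against 20.1 ± 5.13 in miR-Exo and 17.1 ± 3.19 in NPPC-Exo libraries (SD, n = 3 each).

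In length-scaled units Eno1, Ldha, Pkm and Aldoa were the 4 most abundant of the set in every group. Eno1, alpha-enolase, averaged 1125 FPKM in erastin + miR-Exo, 959 in erastin + NPPC-Exo, 594 in miR-Exo and 633 in NPPC-Exo libraries, and the other 3 lay between 483 and 1055 mean FPKM. The 14 measured enzymes from hexokinase to pyruvate kinase summed to 4181, 4223 and 4528 FPKM in erastin + miR-Exo and 3634, 3656 and 3736 in erastin + NPPC-Exo libraries. They summed to 2520, 2665 and 2574 FPKM in miR-Exo and 2556, 2691 and 2721 in NPPC-Exo libraries. The sums were highest in the erastin + miR-Exo libraries and did not overlap between groups with and without erastin. The FPKM carry no TMM scaling, so these sums include the shift named above.

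Pgk1, phosphoglycerate kinase, which makes the first ATP of the pathway, had 744, 770 and 771 CPM in erastin + miR-Exo, 580, 597 and 592 in erastin + NPPC-Exo, 367, 410 and 389 in miR-Exo and 415, 466 and 493 in NPPC-Exo libraries. The 4 groups did not overlap with one another in any pairing, and the log2 fold changes with erastin were 0.97 ± 0.06 (adjusted p = 2.09e-08) and 0.37 ± 0.06 (adjusted p = 0.00022). The erastin effect differed between the kinds of exosome by 0.60 ± 0.08 (adjusted p = 0.00107). Eno1 had 1872, 1928 and 2039 CPM in erastin + miR-Exo and 1765, 1772 and 1794 in erastin + NPPC-Exo libraries, against 1210, 1286 and 1288 in miR-Exo and 1352, 1453 and 1462 in NPPC-Exo libraries. All libraries with erastin were above all without it, its log2 fold changes were 0.63 ± 0.04 and 0.32 ± 0.04, and the difference was 0.30 ± 0.06 (adjusted p = 0.00863). Tpi1, triosephosphate isomerase, rose by 0.79 ± 0.12 and 0.47 ± 0.12, with no overlap.

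Pgam1, phosphoglycerate mutase, and Pkm, the pyruvate kinase gene, rose with miR-Exo by 0.26 ± 0.05 and 0.28 ± 0.05, with values of 0.08 ± 0.05 and 0.04 ± 0.05 under NPPC-Exo. Aldoa, the main aldolase, rose by 0.18 ± 0.06 with miR-Exo and had a value of 0.13 ± 0.06 with NPPC-Exo. The difference between the arms was not called for any of these 3 (adjusted p = 0.132, 0.0556 and 0.725). Aldoc, the brain-type aldolase, ran the other way, with 15.1, 16.2 and 17.2 CPM in erastin + miR-Exo and 11.9, 13.7 and 15.1 in erastin + NPPC-Exo libraries. It had 26.8, 30.7 and 27.2 CPM in miR-Exo and 31.3, 30.6 and 35.7 in NPPC-Exo libraries. It thus fell by 0.81 ± 0.10 and 1.26 ± 0.10 on the log2 scale with no overlap, and the Aldoa to Aldoc FPKM ratio was 64.2 ± 4.8 in erastin + miR-Exo and 84.1 ± 8.5 in erastin + NPPC-Exo against 32.5 ± 2.35 in miR-Exo and 31.9 ± 2.04 in NPPC-Exo libraries (SD, n = 3 each).

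Several of these enzymes have near copies with rows of their own, between which reads can be split. The rows described as copies held 52.2% to 62.2% of the summed CPM of Tpi1 and its copy, 32.6% to 60.5% for Eno2 (gamma-enolase) and 6.31% to 11.4% for Pkm, and at most 3.34% for Ldha, Eno1, Pgk1 and Aldoa. Eno2 by itself was called in neither erastin comparison, and its 66.3, 80.1 and 114 CPM in the miR-Exo libraries became 168, 177 and 169 CPM when its copy was added. With copies added, a choice made after the data were seen, every erastin call of these 7 genes stood. The erastin effect on Tpi1 was then larger with miR-Exo than with NPPC-Exo by 0.47 (adjusted p = 0.00431, against 0.32 and 0.239 for its own row), and that on Pkm by 0.27 (adjusted p = 0.0217). Eno2 with its copy had log2 fold changes of 0.15 and -0.09 (adjusted p = 0.13 and 0.412).

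Genes for the fate of pyruvate and lactate held some of the clearest differences between the kinds of exosome. Slc16a1 (MCT1), a transporter of lactate and other monocarboxylates, had 108, 103 and 104 CPM in erastin + miR-Exo and 62.4, 65.6 and 66.9 in erastin + NPPC-Exo libraries. In the absence of erastin it had 45.2, 43.5 and 44.8 CPM in miR-Exo and 39.9, 37.4 and 40 in NPPC-Exo libraries. The groups formed 4 separate steps, with log2 fold changes with erastin of 1.24 ± 0.05 (adjusted p = 5.06e-10) and 0.73 ± 0.05 (adjusted p = 9.5e-08) and a difference of 0.51 ± 0.07 (adjusted p = 0.00129).

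Ldha, the lactate dehydrogenase subunit that favours lactate formation, had 1488, 1564 and 1580 CPM in erastin + miR-Exo and 1149, 1127 and 1190 in erastin + NPPC-Exo libraries. It had 962, 1021 and 983 CPM in miR-Exo and 999, 1134 and 1174 in NPPC-Exo libraries, which overlapped the erastin + NPPC-Exo libraries. It rose by 0.64 ± 0.06 with miR-Exo (adjusted p = 5.4e-07), its value with NPPC-Exo was 0.07 ± 0.06 (adjusted p = 0.362, and 0.000157 with library size alone), and the difference was 0.58 ± 0.08 (adjusted p = 0.000941). Ldhb, the heart-type subunit, rose by 0.45 ± 0.09 and 0.24 ± 0.09, and stayed far below Ldha, with 22.4, 17, 13.4 and 11.9 mean FPKM in erastin + miR-Exo, erastin + NPPC-Exo, miR-Exo and NPPC-Exo libraries.

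Slc16a3 (MCT4), the exporter known from highly glycolytic cells, fell by 0.39 ± 0.13 with erastin and miR-Exo and had a value of 0.07 ± 0.13 with NPPC-Exo. The call with miR-Exo was lost with library size alone (-0.09, adjusted p = 0.596). Its erastin + miR-Exo libraries were uneven at 159, 120 and 200 CPM, against 213, 214 and 200 in miR-Exo libraries. Pdk1, a kinase that switches off pyruvate dehydrogenase, had 17.7, 20.8 and 21.3 CPM in erastin + miR-Exo, 13.7, 11.7 and 14.3 in erastin + NPPC-Exo, 14.1, 17 and 17.1 in miR-Exo and 16, 16.4 and 21.3 in NPPC-Exo libraries. Its erastin value was 0.31 ± 0.13 with miR-Exo (not called, adjusted p = 0.066) and it fell by 0.43 ± 0.13 with NPPC-Exo (adjusted p = 0.016, and not called with library size alone). The difference was 0.74 ± 0.18 (adjusted p = 0.0207).

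The HIF subunits themselves moved little beside their hydroxylase Egln3. Egln3 (PHD3), a prolyl hydroxylase that marks HIF alpha for destruction and is itself induced by HIF, had 34, 32.7 and 32.5 CPM in erastin + miR-Exo and 10.2, 16.7 and 14.2 in erastin + NPPC-Exo libraries. It had 2.69, 1.64 and 1.73 CPM in miR-Exo and 1.93, 1.09 and 2.24 in NPPC-Exo libraries, or 361 and 290 counts over the 3 libraries of each. No library with erastin came near those without it, and the log2 fold change was 4.03 ± 0.26 with miR-Exo (adjusted p = 2.89e-08) and 2.96 ± 0.25 with NPPC-Exo (adjusted p = 5.89e-07). The difference of 1.07 ± 0.35 missed the threshold (adjusted p = 0.0602). It was called in the DESeq2 test (1.06, adjusted p = 0.0152) and by limma on log2(FPKM + 1) (1.13, adjusted p = 0.00657), but not on log2(FPKM + 0.1). It was also called without miR-Exo library 1 (1.33, adjusted p = 0.0335) or NPPC-Exo library 2 (1.32, adjusted p = 0.0241). The same held without library 1 of both groups lacking erastin (1.26, adjusted p = 0.0464).

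Hif1a, the oxygen-regulated subunit of HIF-1, had 247, 247 and 214 CPM in erastin + miR-Exo, 163, 163 and 167 in erastin + NPPC-Exo, 201, 219 and 222 in miR-Exo and 181, 173 and 187 in NPPC-Exo libraries. The erastin + NPPC-Exo libraries were the lowest of the 12, but neither erastin comparison was called (0.14 ± 0.06 and -0.14 ± 0.06, adjusted p = 0.0702 and 0.0878). With library size alone Hif1a was called higher with miR-Exo (0.45, adjusted p = 3.88e-05), as it was without erastin + miR-Exo library 3 (0.19, adjusted p = 0.00963). The difference between its erastin effects was called in the DESeq2 test (0.27, adjusted p = 0.0217) and with library size alone (0.30, adjusted p = 0.0412), but not in the main fit. Epas1 (HIF-2 alpha) had 238, 231 and 222 CPM in erastin + miR-Exo and 163, 208 and 212 in erastin + NPPC-Exo libraries, with 208, 191 and 197 in miR-Exo and 289, 229 and 224 in NPPC-Exo libraries. It fell by 0.35 ± 0.10 with NPPC-Exo (adjusted p = 0.015), had a value of 0.21 ± 0.10 with miR-Exo, and the difference of 0.56 ± 0.15 was called (adjusted p = 0.0258). With library size alone the fall with NPPC-Exo was lost (-0.07, adjusted p = 0.625) and Epas1 was called higher with miR-Exo (0.52, adjusted p = 0.000682). Egln1 (PHD2), the main oxygen sensor of the family, fell by 0.24 ± 0.09 with miR-Exo (adjusted p = 0.0366), a direction that library size alone turned to 0.07 and that was not called with the replicate number as a block.

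**Figure D3:**
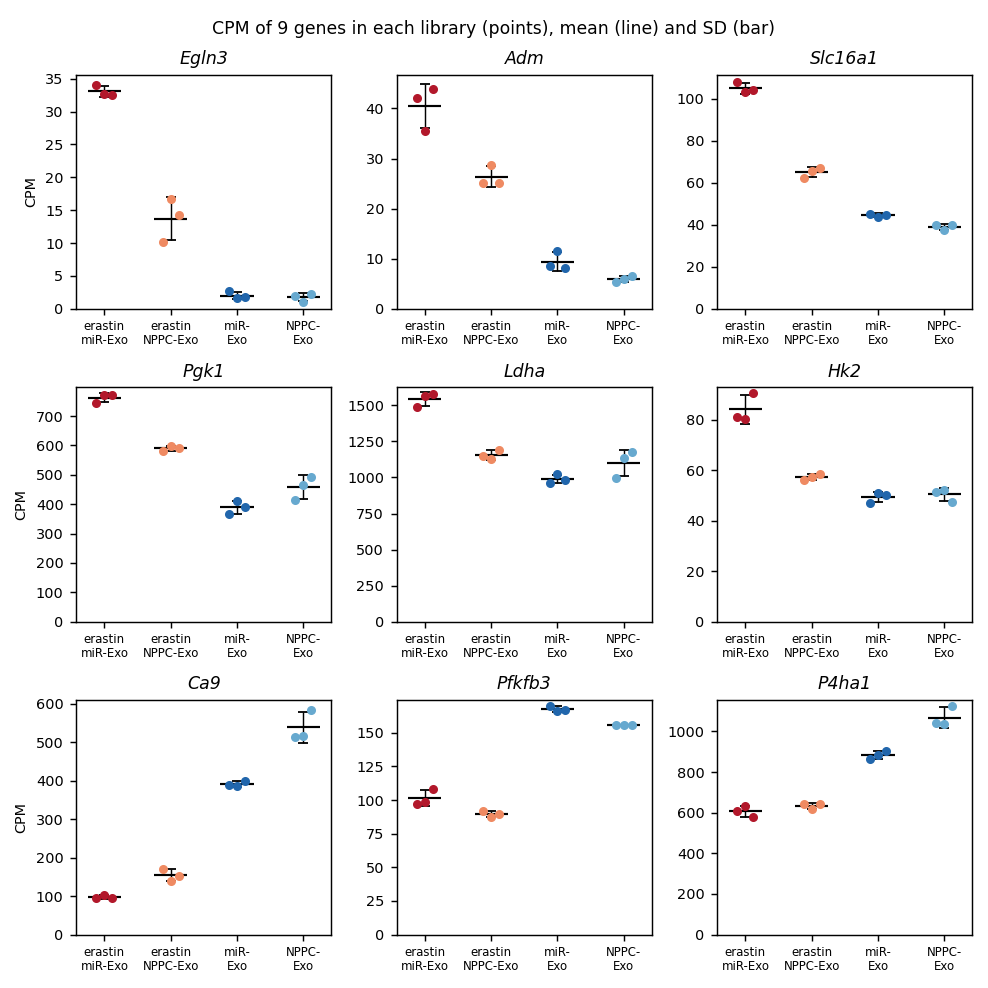
CPM of 9 genes in each library (points), with the mean (line) and SD (bar) of each group of 3, on linear axes that start at 0. Egln3, Adm, Slc16a1, Pgk1, Ldha and Hk2 are highest in the erastin + miR-Exo libraries, and Ca9, Pfkfb3 and P4ha1 are lower in both groups with erastin than in either group without it.

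Known targets of HIF went both ways. Among those that fell, Ca9 (carbonic anhydrase IX), a membrane enzyme that handles the acid of glycolytic cells, had 93.8, 104 and 96 CPM in erastin + miR-Exo and 171, 139 and 153 in erastin + NPPC-Exo libraries. It had 388, 385 and 399 CPM in miR-Exo and 513, 517 and 584 in NPPC-Exo libraries. The 4 groups were fully separate, and Ca9 fell by 2.00 ± 0.08 with miR-Exo and by 1.80 ± 0.08 with NPPC-Exo on the log2 scale (adjusted p = 1.98e-10 and 6.09e-10), the largest fall of the 37 genes in either comparison. Ca12, a related membrane enzyme, was scarce, at most 0.835 CPM in a miR-Exo library and 0.959 CPM in an NPPC-Exo library. It rose by 1.13 ± 0.28 with miR-Exo and had a value of 0.66 ± 0.28 with NPPC-Exo (adjusted p = 0.0765).

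Adm, the precursor of the vessel-widening peptide adrenomedullin, had 42, 35.5 and 43.8 CPM in erastin + miR-Exo and 25.2, 28.8 and 25.2 in erastin + NPPC-Exo libraries, against 8.56, 11.6 and 8.16 in miR-Exo and 5.33, 5.97 and 6.64 in NPPC-Exo libraries. No library with erastin overlapped those without it. Adm rose by 2.10 ± 0.14 and 2.14 ± 0.14 on the log2 scale, and the difference between the arms was -0.04 ± 0.19 (adjusted p = 0.924). Kdm3a, a histone H3 lysine 9 demethylase induced by HIF, had 87.3, 89.5 and 85.4 CPM in erastin + miR-Exo, 69.4, 67.1 and 60.8 in erastin + NPPC-Exo, 49.5, 47.7 and 52.3 in miR-Exo and 52.6, 54.2 and 48.9 in NPPC-Exo libraries. Its groups with erastin lay above both others, with log2 fold changes of 0.81 ± 0.06 and 0.34 ± 0.06 and a difference of 0.47 ± 0.09 (adjusted p = 0.0061).

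The collagen prolyl 4-hydroxylase subunits, which stabilise the collagen helix and need oxygen to work, went in opposite directions. P4ha1 had 607, 632 and 579 CPM in erastin + miR-Exo and 641, 618 and 642 in erastin + NPPC-Exo libraries, against 866, 885 and 905 in miR-Exo and 1042, 1035 and 1126 in NPPC-Exo libraries. It was lower in every library with erastin, by 0.55 ± 0.05 and 0.75 ± 0.05 on the log2 scale, falling in both comparisons. P4ha2 had 248, 261 and 241 CPM in erastin + miR-Exo, 239, 281 and 265 in erastin + NPPC-Exo, 162, 161 and 166 in miR-Exo and 183, 194 and 204 in NPPC-Exo libraries, and rose by 0.62 ± 0.06 and 0.43 ± 0.06.

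Bnip3 and Bnip3l, mitochondrial proteins that mark mitochondria for removal, fell or were not called with erastin. Bnip3 had 68.9, 71.6 and 70 CPM in erastin + miR-Exo, 76.5, 76.1 and 82.1 in erastin + NPPC-Exo, 68, 75.1 and 73.8 in miR-Exo and 99.4, 104 and 111 in NPPC-Exo libraries. The NPPC-Exo libraries stood above the other 9, so that Bnip3 fell by 0.42 ± 0.06 with NPPC-Exo but had a value of -0.04 ± 0.06 with miR-Exo (0.26, called as higher, with library size alone), and the erastin effects differed by 0.38 ± 0.08 (adjusted p = 0.0119). Bnip3l fell by 0.34 ± 0.07 and 0.42 ± 0.07. Ndrg1, a stress gene, fell by 0.31 ± 0.07 and 0.24 ± 0.07, the value with NPPC-Exo turning to 0.04 with library size alone. Neither Bnip3l nor Ndrg1 was called in either erastin comparison at that scaling, and Bnip3 was not with NPPC-Exo. Ankrd37, a small ankyrin-repeat protein, was called in no comparison at 0.622 to 2.03 CPM.

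Not every erastin call stood when 1 library was left out. With miR-Exo, 24 of 28 stood. Slc2a1 was lost without erastin + miR-Exo library 1 or 3 or miR-Exo library 3 (log2 fold change 0.23 to 0.32, adjusted p 0.0532 to 0.108), and Aldoa without library 3 of either group (0.10 to 0.17, adjusted p 0.0553 to 0.101). Slc16a3 was lost without library 1 or 2 of either group (-0.40 to -0.24, adjusted p 0.0577 to 0.0638) and was at -0.60 without erastin + miR-Exo library 3, and Egln1 was lost without erastin + miR-Exo library 1 or 2 or miR-Exo library 1 or 3 (-0.23 to -0.20, adjusted p 0.0849 to 0.11). With NPPC-Exo, 17 of 24 stood. Hk2 was lost without library 3 of either group (0.14 to 0.19, adjusted p 0.0641 to 0.115), Pfkl without library 2 or 3 of either (0.33 to 0.44, adjusted p 0.0849 to 0.149), and Pfkfb4 without NPPC-Exo library 2 or erastin + NPPC-Exo library 1 or 3 (0.53 to 0.63, adjusted p 0.0554 to 0.083). Ldhb was lost without any library but NPPC-Exo library 3 (0.17 to 0.28, adjusted p 0.0561 to 0.194), and Pdk1 without NPPC-Exo library 3 or erastin + NPPC-Exo library 2 (-0.34 to -0.29, adjusted p 0.0848 to 0.0862). Epas1 was lost without library 1 of either group (-0.22, adjusted p 0.0712 to 0.0918), and Ndrg1 without library 2 of either group or erastin + NPPC-Exo library 3 (-0.22 to -0.19, adjusted p 0.0626 to 0.0962).

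The interaction asks whether erastin acted differently under the 2 kinds of exosome. It was called for 11 of the 37 genes, each with the more positive erastin effect under miR-Exo, and for 0 in the other direction. Across all genes tested 12.8% were called (5.81% more positive and 7.01% more negative), and the median difference was 0.304 for the 37 genes against 0.0294 for all. The 11 were Hk2, Gpi, Pfkp, Pgk1, Eno1, Ldha, Slc16a1, Pdk1, Epas1, Bnip3 and Kdm3a, 5 of them enzymes of the pathway from glucose to pyruvate. Pdk1 was lost without miR-Exo library 1, erastin + miR-Exo library 2 or erastin + NPPC-Exo library 2 (0.63 to 0.68, adjusted p 0.0522 to 0.0614). Epas1 was lost without erastin + miR-Exo library 1 or 2, erastin + NPPC-Exo library 1 or miR-Exo library 2 (0.42 to 0.53, adjusted p 0.058 to 0.084). Without library 1 of both groups lacking erastin, 14 were more positive and 1 more negative. In the DESeq2 test 17 were more positive and 2 more negative, Pfkl and Slc16a3.

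Set directly against NPPC-Exo among cells with erastin, miR-Exo libraries were higher in 13 and lower in 2 of the 23 genes for glucose transport, glycolysis, lactate and pyruvate, and had less Ca9. Of the 37 genes, 17 were higher and 4 lower in erastin + miR-Exo than in erastin + NPPC-Exo libraries, where 31.3% of all genes were called (15.6% higher and 15.8% lower), and the median log2 fold change was 0.245 against 0.011 for all genes. Library size alone gave 23 higher and 4 lower and shifted the median of all genes by 0.104. These libraries are the same as in the erastin comparisons, so the values restate the levels above. All 5 genes of lactate and pyruvate fate were called: Slc16a1 was higher by 0.70 ± 0.05 (adjusted p = 9.44e-07), Pdk1 by 0.59 ± 0.13, Ldha by 0.42 ± 0.06 and Ldhb by 0.29 ± 0.09, whereas Slc16a3 had a log2 fold change of -0.51 ± 0.13. Egln3 was higher by 1.27 ± 0.22 (adjusted p = 0.00085), Adm by 0.62 ± 0.13, Hk2 by 0.55 ± 0.06, Hif1a by 0.53 ± 0.06 (adjusted p = 3.82e-05), and Pfkp and Slc2a3 each by 0.47 on the log2 scale. Kdm3a at 0.41 ± 0.06, Pgk1 at 0.37 ± 0.06 and Gpi at 0.32 ± 0.04 were also higher. Ca9 (-0.66 ± 0.07), Ndrg1 (-0.45 ± 0.07) and Pfkl (-0.71 ± 0.16) were lower with miR-Exo.

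Among these 21 calls, 16 stood without each library in turn. Eno1 (0.13 ± 0.04) was lost without any 1 of the 6 libraries (0.08 to 0.14, adjusted p 0.0544 to 0.209), and Eno2 (0.51 ± 0.16) without any but erastin + NPPC-Exo library 2 (0.41 to 0.52, adjusted p 0.0516 to 0.111). Ldhb was lost without any but erastin + miR-Exo library 3 (0.23 to 0.30, adjusted p 0.0612 to 0.142), and Pgam1 (0.19 ± 0.05) without library 1 or 2 of either group (0.15 to 0.17, adjusted p 0.0708 to 0.0952). Pfkfb3 (0.18 ± 0.05) was lost without erastin + miR-Exo library 3 or erastin + NPPC-Exo library 2 or 3 (0.11 to 0.16, adjusted p 0.0668 to 0.0944). With near copies added, Tpi1 at 0.34 (adjusted p = 0.000772) and Pkm at 0.17 (adjusted p = 0.019) were also called. Eno2 with its copy was at 0.50 (adjusted p = 0.000329).

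**Figure D4:**
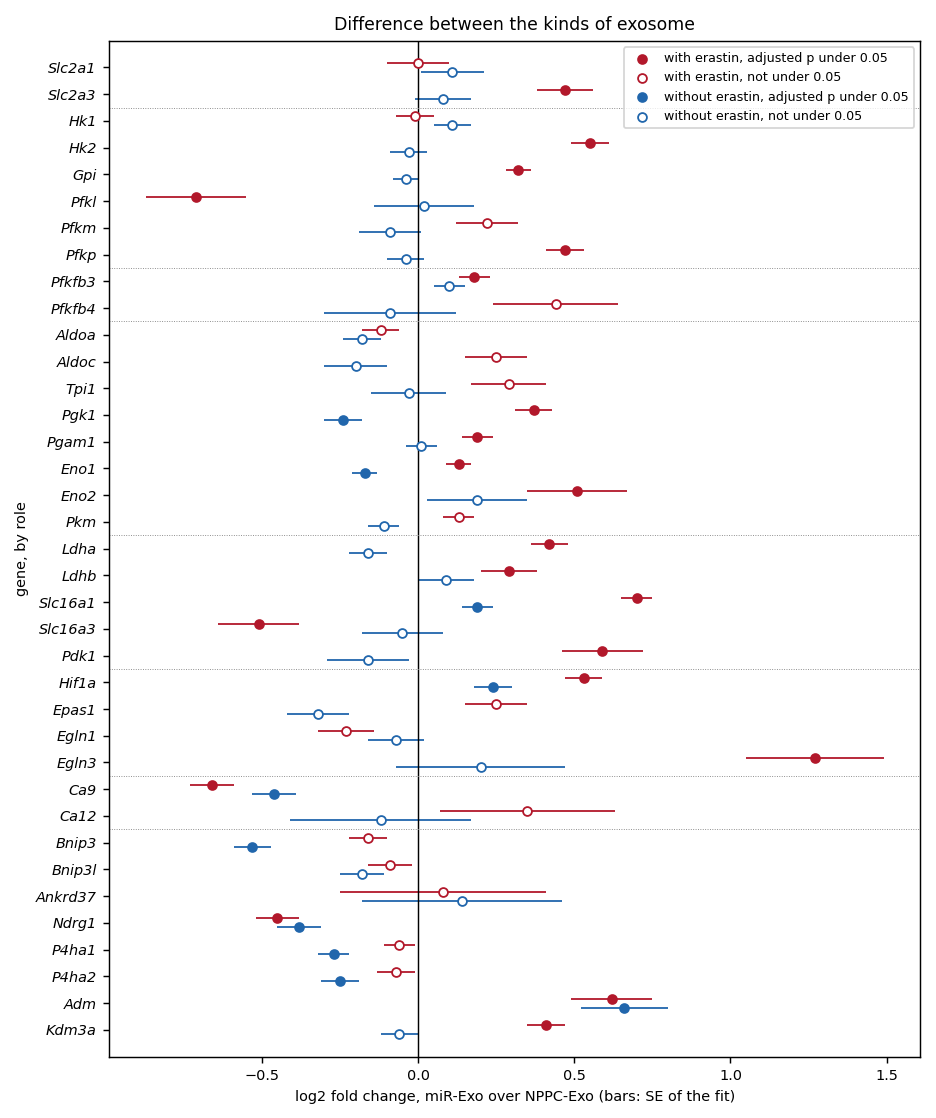
Log2 fold change of miR-Exo over NPPC-Exo (x axis, bars are the SE of the fit, n = 3 libraries in each group) for each of the 37 genes (y axis, by role), with erastin in red and without erastin in blue, filled where the adjusted p was under 0.05. Most red points lie right of 0, while most blue points lie near 0 or left of it, and Pgk1 and Eno1 lie on opposite sides with and without erastin.

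In the absence of erastin the 2 kinds of exosome differed in fewer of these genes. In miR-Exo libraries 3 genes were higher and 7 lower than in NPPC-Exo libraries, where 10.7% of all genes were called (4.15% higher and 6.52% lower). The median log2 fold change was -0.0588 against 0 for all genes, and library size alone gave 4 higher and 4 lower. Adm (0.66 ± 0.14, adjusted p = 0.0099), Hif1a (0.24 ± 0.06) and Slc16a1 (0.19 ± 0.05) were higher. Bnip3 (-0.53 ± 0.06, adjusted p = 0.000112), Ca9 (-0.46 ± 0.07, adjusted p = 0.00162), Ndrg1 (-0.38 ± 0.07), P4ha1 (-0.27 ± 0.05), P4ha2 (-0.25 ± 0.06), Pgk1 (-0.24 ± 0.06) and Eno1 (-0.17 ± 0.04) were lower. The last 3 were not called with library size alone. Eno2 was called higher only when its near copy was added (0.27, adjusted p = 0.0438).

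The labels give no pairing of libraries. Same-numbered libraries correlated weakly in this comparison (0.109, 0.203 and 0.396), but the calls above come from the main fit, which used no pairs. Libraries of unlike number also reached 0.204 (miR-Exo library 2 and NPPC-Exo library 3), so pairing is not established. With the number as a block 2 were higher and 7 lower, and Slc16a1 kept its 0.19 but missed the threshold (adjusted p = 0.0515). The count was 6 without miR-Exo library 1, miR-Exo library 2 or NPPC-Exo library 3, and 5 without NPPC-Exo library 2. Slc16a1 was lost without any library but NPPC-Exo library 1 (0.15 to 0.20, adjusted p 0.0596 to 0.154), and Hif1a without miR-Exo library 2 or 3 or NPPC-Exo library 2 (0.22 to 0.23, adjusted p 0.0797 to 0.0979). Pgk1 was lost without miR-Exo library 1 or 3 or NPPC-Exo library 2 or 3 (-0.24 to -0.18, adjusted p 0.0631 to 0.0957). Eno1 (-0.19 to -0.14, adjusted p 0.0502 to 0.101) and P4ha2 (-0.25 to -0.21, adjusted p 0.066 to 0.078) were lost without miR-Exo library 1 or 2 or NPPC-Exo library 2 or 3. Without library 1 of both groups, 2 were higher and 7 lower, and Slc16a1 (adjusted p = 0.106) and Ndrg1 (-0.33, adjusted p = 0.0505) were lost. Bnip3, Ca9 and P4ha1 were called under every setting run.

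**Figure D5:**
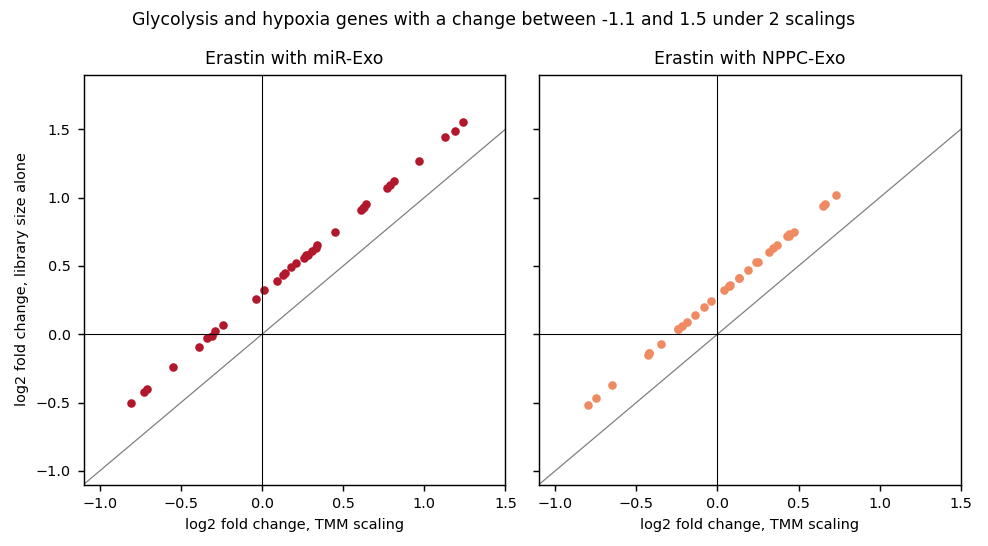
Log2 fold change with erastin under library size alone (y axis) against that under TMM scaling (x axis) for the genes whose change lay in the range drawn, with miR-Exo at the left and NPPC-Exo at the right, and the line of equal values in grey. Every point lies above the line by about the shift of the median of all genes, 0.305 at the left and 0.282 at the right, and a few points between the axes cross from below 0 to above it.

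The neighbouring pathways were read from lists that hold none of the 37 genes, and their counts stand beside the 24.7% of all genes called higher and 24.4% called lower with erastin and miR-Exo, and the 21.5% and 22.1% with erastin and NPPC-Exo. No list was tested as a whole. Of 27 tested genes named in the list of other hypoxia-induced genes, 7 rose and 9 fell with erastin and miR-Exo and 3 rose and 12 fell with NPPC-Exo, with medians of -0.154 and -0.155. With miR-Exo the shares of the list, 25.9% higher and 33.3% lower, stood at about the share of all genes for higher calls and above it for lower calls, and with NPPC-Exo they were 11.1% and 44.4%. Angptl4, a secreted inhibitor of lipoprotein lipase, had 169, 165 and 172 CPM in erastin + miR-Exo and 90.5, 110 and 109 in erastin + NPPC-Exo libraries, against 4.04, 4.15 and 4.77 in miR-Exo and 4.12, 4.18 and 3.29 in NPPC-Exo libraries. It rose by 5.28 ± 0.11 and 4.74 ± 0.11, without overlap. Vldlr, the very low density lipoprotein receptor, fell by 2.32 ± 0.08 and 2.41 ± 0.08. The collagen lysyl hydroxylase Plod1 fell by 0.70 ± 0.05 and 1.06 ± 0.05.

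Of 15 tested oxygen-sensing genes outside the set, 0 rose in either erastin comparison, 6 fell with miR-Exo (40% of the list) and 2 fell with NPPC-Exo (13.3%, below the share of all genes). Those that fell in both were Arnt, the HIF partner subunit (-0.54 ± 0.09 and -0.44 ± 0.09), and Os9, an endoplasmic reticulum lectin (-0.47 ± 0.05 and -0.40 ± 0.05). Arnt2, a paralogue of Arnt known best from the nervous system, had 43, 38.4 and 39.4 CPM in erastin + miR-Exo against 17.5, 19.6 and 18.9 in erastin + NPPC-Exo libraries. It had 37.5, 32.1 and 39.8 CPM in miR-Exo against 17.7, 17.2 and 17.9 in NPPC-Exo libraries. Both miR-Exo groups were clear of both NPPC-Exo groups, with log2 fold changes of miR-Exo over NPPC-Exo of 1.11 ± 0.09 with erastin and 1.05 ± 0.09 without it (adjusted p = 1.33e-06 and 1.19e-05). Arnt was lower with miR-Exo in both (-0.55 ± 0.09 and -0.45 ± 0.09).

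For the pyruvate dehydrogenase complex and its regulators, 5 of 11 genes rose and 2 fell with erastin and miR-Exo, and 3 rose and 2 fell with NPPC-Exo. In all 63.6% and 45.5% of this list were called, against 49.1% and 43.6% of all genes. Pdk4, a kinase that inactivates the complex when fat is burned, had 46.6, 48.9 and 45.6 CPM in erastin + miR-Exo and 30.6, 30.2 and 26.9 in erastin + NPPC-Exo libraries, against 15.3, 12.1 and 15.7 in miR-Exo and 6.33, 6.66 and 5.05 in NPPC-Exo libraries. The 4 groups were separate, and Pdk4 rose by 1.71 ± 0.12 and 2.28 ± 0.12, less under miR-Exo by 0.57 ± 0.16 on the log2 scale (adjusted p = 0.0386). In the pentose phosphate pathway, 3 of 8 genes rose and 2 fell in each erastin comparison (62.5% called). Taldo1, the transaldolase, rose by 0.74 ± 0.07 and 0.40 ± 0.07.

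Of 14 genes of glycogen metabolism, 3 rose and 5 fell with miR-Exo (21.4% and 35.7%), and 1 rose and 8 fell with NPPC-Exo (7.14% and 57.1%). Gyg1, glycogenin, which primes glycogen chains, fell by 1.27 ± 0.07 and 1.39 ± 0.07, and Pygb, brain glycogen phosphorylase, rose by 0.49 ± 0.06 and 0.46 ± 0.06. Among other glycolysis isoforms and regulators, 3 of 23 rose and 8 fell with miR-Exo (13% and 34.8%) and 3 rose and 9 fell with NPPC-Exo (13% and 39.1%). Slc2a10 (GLUT10) fell by 1.42 ± 0.13 and 1.29 ± 0.13. Pfkfb1, a further PFKFB gene, rose by 1.22 ± 0.15 and 0.66 ± 0.15. Eno3, muscle enolase, was not called with erastin, but had log2 fold changes of miR-Exo over NPPC-Exo of -0.95 ± 0.10 with erastin and -0.93 ± 0.11 without it (adjusted p = 2.47e-05 and 0.000131). Bsg (basigin), the chaperone of the monocarboxylate transporters, fell by 1.43 ± 0.22 with erastin and miR-Exo, with libraries at 160, 141 and 216 CPM in erastin + miR-Exo against 555, 448 and 388 in miR-Exo.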

How the data were processed

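RNA of 12 libraries was measured by RNA-seq; the labels' protocols give TRIzol total RNA and strand-marked (dUTP) libraries. The authors deposited a table of whole-number counts and FPKM per gene. Per the submitters' processing notes, StringTie and the mRatBN7.2 build were used; for their settings: not given in the sources used here. Among deposited counts from 1 to 20, 57.3% were even, so an alternative halved all counts in case both mates were counted. The 38 genes and the pathway and marker lists were chosen with earlier results of these data known.

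Libraries were grouped by their titles. Counts were filtered (edgeR filterByExpr, 15650 genes kept), scaled by TMM (factors 0.877 to 1.15) and fitted with edgeR 4.0.16 (quasi-likelihood, 4 groups in 1 fit, R 4.3.3). P-values were adjusted by Benjamini-Hochberg over all genes kept, and a gene with adjusted p under 0.05 was called. The 5 comparisons were erastin under each kind of exosome, the kind of exosome with and without erastin, and the interaction. The code was tested on simulated data. Alternatives used DESeq2 1.42.0, its size factors, library size alone, no filter, halved counts, limma 3.58.1 on log2(FPKM + 1) or log2(FPKM + 0.1), the compared groups alone, a replicate block, and each library left out. Near copies added, and library 1 of miR-Exo and NPPC-Exo left out together, were chosen after seeing the data. The main fit used no pairs, and the replicate block was run for all 5 comparisons as an alternative only. Same-numbered libraries were held to be possible pairs where every correlation of their deviations exceeded 0.1. That held for miR-Exo against NPPC-Exo without erastin (0.109, 0.203 and 0.396). It comes from the data, not the labels.

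The text names every one of the 37 genes, and from each pathway list genes among the 3 per direction and comparison with the smallest adjusted p. Replicates differed by more than sampling noise (chi-square 13 to 54.6 per degree of freedom). Total counts set a floor of 3 counts, near 0.05 CPM, for counting error only.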

Additional observations from a re-analysis of the deposited data

Results flagged for a closer look

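For 11 of the 37 genes the effect of erastin differed between the kinds of exosome in the test of that difference itself (edgeR interaction term, adjusted p under 0.05 over all genes tested). In each the effect under miR-Exo was the more positive. On the log2 scale the difference was 0.58 for Hk2, 0.36 for Gpi, 0.51 for Pfkp, 0.60 for Pgk1 and 0.30 for Eno1 among the glycolytic enzymes. It was 0.58 for Ldha, 0.51 for Slc16a1 and 0.74 for Pdk1 among the genes of lactate and pyruvate. Among the HIF pathway genes it was 0.56 for Epas1, 0.38 for Bnip3 and 0.47 for Kdm3a.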

How the results depend on the processing

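Of the genes called, 22 of 28 (erastin with miR-Exo), 14 of 24 (erastin with NPPC-Exo), 16 of 21 (miR-Exo with erastin), 3 of 10 (miR-Exo without erastin) and 9 of 11 (interaction) were called under every setting run. Leaving out 1 library gave 26 to 29, 19 to 24, 17 to 20, 5 to 12 and 9 to 15 called genes in the same order. DESeq2 called 19 interactions (17 more positive, 2 more negative). With the replicate number as a block, 28, 24, 23, 9 and 13 genes were called. In the first 3 comparisons same-numbered libraries did not meet the rule for pairs (correlations -0.211 to 0.204). Egln1 was lost there with erastin and miR-Exo (adjusted p = 0.0546). Directions turned for erastin with miR-Exo in Egln1 (0.07 with library size alone, 0.06 on log2(FPKM + 1) and 0.06 on log2(FPKM + 0.1)) and Bnip3 (0.26, 0.25 and 0.26 in the same order). For erastin with NPPC-Exo they turned in Pfkp (0.04 in all 3), Ndrg1 (0.04, 0.03 and 0.04), Slc2a3 (0.24 with library size alone, 0.23 on log2(FPKM + 0.1)) and Egln1 (0.19 on log2(FPKM + 1), 0.20 on log2(FPKM + 0.1)). These 3 settings omit TMM scaling, which moves all genes together. Sign changes of values called in neither setting were not counted. Each gene had 1 row, so summing rows of a symbol was not run. The low counts of Ca12, Ankrd37 and, without erastin, Egln3 limit their precision.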
